A study of Mus musculus with 6 samples.

Results

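The genes described here are the secreted Wnt ligands, their Frizzled (Fzd) receptors, the secreted Frizzled-related proteins (Sfrp) and the Dickkopf (Dkk) antagonists. They were chosen by symbol (Wnt, Fzd, Sfrp or Dkk followed by a number) and by presence, with the same Ensembl identifier, in the gene lists of all 6 samples. This gave 37 of 21485 shared genes, that is 19 Wnt, 10 Fzd, 4 Sfrp and 4 Dkk genes. The samples were muscle-derived stem/progenitor cells (MDSPCs), which are slowly adhering cells enriched from digested mouse skeletal muscle by repeated transfer of the non-adherent fraction to fresh collagen-coated flasks. The young group was 3 such populations and the old group was 3 others, all grown in serum-rich proliferation medium with no other treatment named, and the labels give no age, sex, strain or genotype of the donors. Each population was profiled as 1 droplet-based 3′ library of single cells and was the unit of replication, so the tests across samples measure the spread between these 6 populations.

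Wnt proteins are lipid-modified signals that bind Frizzled receptors together with Lrp5 or Lrp6 and stabilise beta-catenin, or that act through the planar polarity and calcium branches without it. Sfrp proteins resemble the Wnt-binding part of a Frizzled receptor and hold ligands outside the cell, whereas Dkk proteins bind the Lrp co-receptors. In skeletal muscle the pathway is known for roles in embryonic myogenesis, in the expansion of satellite cells and in the balance between myogenic and fibrogenic or adipogenic fates.

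The promoters of Wnt9a, Wnt4, Fzd5 and Fzd9 are shown because these genes were called higher in cells with a transcript of Myog, which encodes myogenin, a basic helix-loop-helix factor that binds E-boxes. The fifth such gene, Fzd2, had no entry in the sequence table. Each sequence is the 250 bases before the start annotated by RefSeq, read 5′ to 3′ on the gene's strand on build GRCm38.p6. Capitals mark the E-boxes CAGCTG and CACCTG, both strands searched (CAGGTG is CACCTG on the other strand). Wnt9a (chr11:59306680-59306929, plus strand) held a CAGCTG that began 74 bases before the start, Wnt4 (chr4:137277385-137277634, plus strand) a CACCTG 15 bases before it, and Fzd5 (chr1:64737751-64738000, minus strand) a CAGGTG 20 bases before it. Fzd9 (chr5:135251048-135251297, minus strand) held neither. Gene coordinates given further on are from GENCODE, which places the starts of Wnt4 (137277489) and Fzd9 (135251230) inside these windows. By that annotation the marked CACCTG of Wnt4 lies inside the gene.
Wnt9a: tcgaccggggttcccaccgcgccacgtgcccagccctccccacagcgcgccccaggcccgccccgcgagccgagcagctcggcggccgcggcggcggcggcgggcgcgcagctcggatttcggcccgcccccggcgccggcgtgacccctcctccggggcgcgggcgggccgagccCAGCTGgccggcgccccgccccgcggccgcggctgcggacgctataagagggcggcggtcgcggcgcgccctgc
Wnt4: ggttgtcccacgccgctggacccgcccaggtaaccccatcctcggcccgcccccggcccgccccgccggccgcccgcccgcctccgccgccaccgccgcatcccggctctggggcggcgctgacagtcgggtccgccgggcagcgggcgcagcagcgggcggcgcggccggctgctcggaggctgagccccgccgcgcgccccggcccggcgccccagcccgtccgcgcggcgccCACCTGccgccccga
Fzd5: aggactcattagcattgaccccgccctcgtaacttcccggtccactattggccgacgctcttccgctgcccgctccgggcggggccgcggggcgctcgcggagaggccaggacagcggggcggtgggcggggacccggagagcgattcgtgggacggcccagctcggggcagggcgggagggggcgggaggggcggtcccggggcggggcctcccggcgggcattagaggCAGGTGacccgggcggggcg
Fzd9: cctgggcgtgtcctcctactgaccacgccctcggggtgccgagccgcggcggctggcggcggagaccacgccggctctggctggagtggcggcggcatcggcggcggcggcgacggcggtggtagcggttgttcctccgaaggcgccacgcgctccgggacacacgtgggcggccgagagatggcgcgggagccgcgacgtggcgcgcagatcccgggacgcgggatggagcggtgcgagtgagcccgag
Such matches are common and are a description of the letters in these windows. CAGCTG was present in 13.0% of all 32851 promoters of the table at this length, and CACCTG in 17.2%. The table held 25 of the 37 genes, of which 2 had a CAGCTG (Wnt9a and Fzd10) and 8 a CACCTG (Wnt4, Fzd5, Wnt2b, Wnt3a, Wnt5b, Wnt9b, Wnt10b and Sfrp5). Fzd10 and Sfrp5 had 0 counts, and Wnt5b and Wnt10b were not called between cells with and without a Myog transcript. Binding of myogenin to these promoters was not tested.

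The deposited matrices held 62849 cell barcodes, of which 61673 were kept as cells, between 8674 and 12541 per sample, with median depths of 13001 to 19951 unique molecular identifiers (UMIs) per cell. Any pair of libraries shared 23 to 35 kept barcodes, at most 0.369% of the smaller library. Young 1 and old 1 were counted on a shorter gene list and, per the file headers, with an earlier Cell Ranger version than the others. A difference shared by these samples cannot be told apart from one of processing. Markers of the myogenic list summed to 210 to 2426 CPM in the young populations and 265 to 3756 CPM in the old samples, and all 10 were above 1 CPM in at least 1 sample. Some were nearly absent from single populations. Pax7 was at 0.0245 CPM in young 3 and 55.5 CPM in young 2, and Myf5 at 0.00883 CPM in young 1 and 53.3 CPM in old 2. Des was at 2.48 CPM in young 3 and 455 CPM in old 3. The fibro-adipogenic list summed to 301 to 447 CPM in young and 311 to 489 CPM in old samples, with Gsn alone at 135 to 303 CPM and Col3a1 at 12.8 to 132 CPM. Ly6a, Cd34 and Smoc2 reached 121, 108 and 103 CPM in single samples and were as low as 2.76, 6.62 and 1.18 CPM in others. The remaining members of the list were low, with Pdgfra and Dcn at no more than 1.88 and 1.58 CPM, Pi16 and Dpt at no more than 0.149 and 0.0929 CPM, and Lum at 0 in 5 of 6 samples. The tendon factor Scx made up nearly all of a tendon sum of 116 to 291 CPM, with Mkx at 1.54 to 6.19 CPM and Tnmd at no more than 0.0208 CPM. Sums for mural, adipocyte, blood, Schwann and endothelial markers reached at most 72.0, 23.4, 9.07, 5.75 and 1.24 CPM. The share of cells with a Myog UMI at a common depth of 5000 UMIs was 3.53%, 20.2% and 5.40% in young 1, 2 and 3 and 0.626%, 14.7% and 46.1% in old 1, 2 and 3, so it varied within both groups.

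Levels below are in CPM, that is a gene's UMIs summed over the cells of a sample relative to all UMIs of that sample, adjusted with TMM factors. Because a 3′ library is meant to count each RNA molecule once whatever its length, levels of different genes are set side by side without a length correction. Whether reads in introns were counted is not given, and such reads could add to the counts of some genes. A sum cannot tell a change in the number of cells that express a gene from a change in its amount per cell. Of the 37 genes, 26 passed the filter on low counts and were tested between old and young, namely 12 Wnt, 9 Fzd, 3 Sfrp and 2 Dkk genes. The other 11 had between 0 and 23 counts in all 6 samples together. Fzd10 and Sfrp5 had 0 counts among 61673 cells, which allows a share of up to 0.00486% of cells with a UMI.

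**Figure D1:**
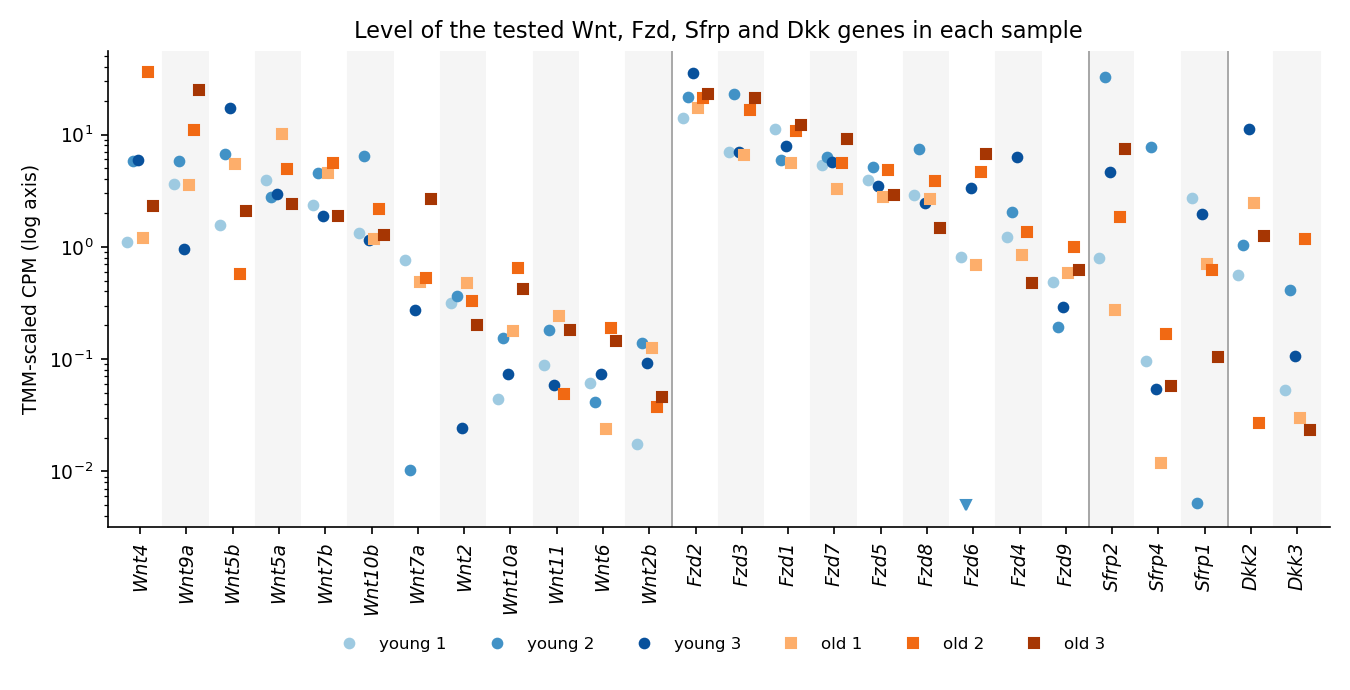
TMM-scaled CPM (log axis) of the 26 tested genes in each sample, with circles for young and squares for old samples, grouped as Wnt, Fzd, Sfrp and Dkk and ordered by mean level within a family. The triangle stands for the 0 counts of Fzd6 in young 2, and for most genes the young and old points overlap over a wide range.

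The Wnt ligands together summed to 26.4 ± 9.67 CPM (SD, n = 3) in the young and 42.8 ± 17.4 CPM (n = 3) in the old samples, and 4 different ligands led in the 6 populations. Wnt5a led in young 1 and old 1, the samples on the shorter gene list, with 25.6% and 36.5% of the Wnt sum. Wnt5b led in young 2 and young 3 with 20.5% and 56.0%. Wnt4 made up 57.8% of the sum in old 2, and Wnt9a 64.8% in old 3.

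**Figure D2:**
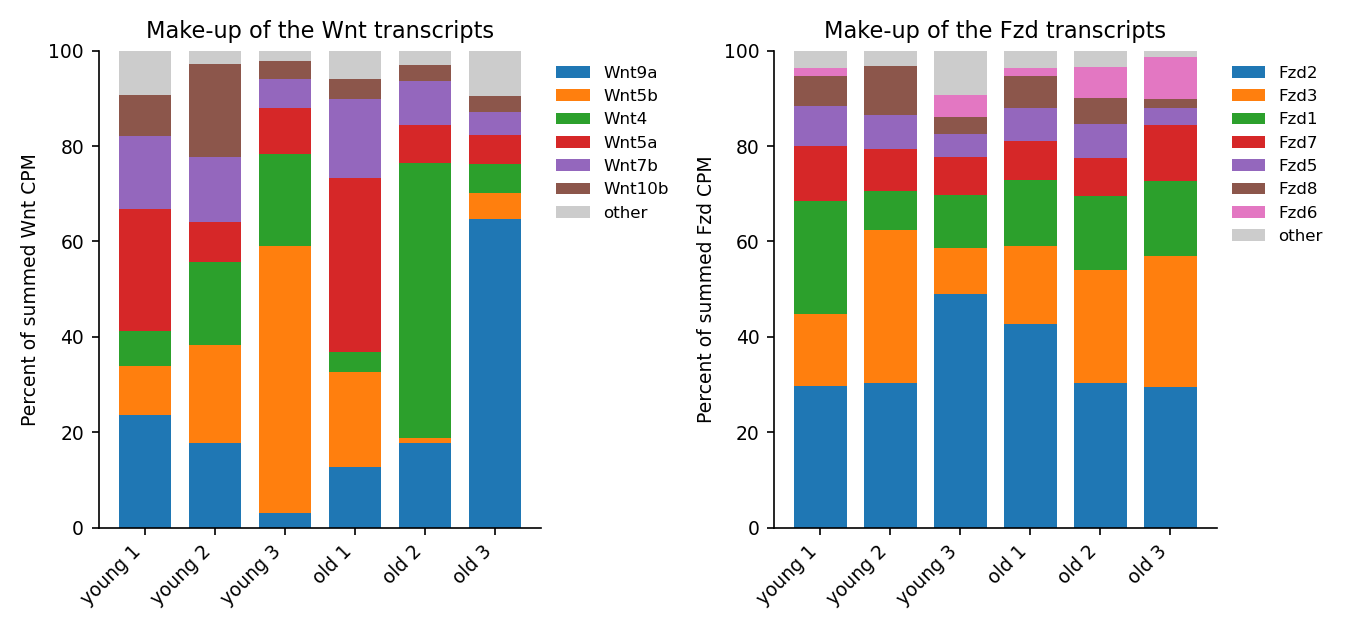
Percent of the summed CPM of the Wnt genes (left) and of the Fzd genes (right) that each gene contributed in each sample. The leading ligand differs between samples, from Wnt5b with 56.0% in young 3 to Wnt4 with 57.8% in old 2 and Wnt9a with 64.8% in old 3, whereas Fzd2 takes between 29.5% and 49.0% of the receptor sum in all 6.

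Wnt4, a ligand known for its roles in kidney and gonad development, stood at 1.11, 5.77 and 5.97 CPM in young 1, 2 and 3 and at 1.19, 35.8 and 2.33 CPM in old 1, 2 and 3. Old 2 was far above all others, and the remaining old samples lay within the young range. Wnt9a, a ligand known from joint formation, was at 3.61, 5.87 and 0.949 CPM in the young samples and at 3.55, 11 and 25.1 CPM in the old. Old 2 and old 3 were above every young sample, and old 1 was not. Wnt5b, which mostly signals without beta-catenin, was at 1.57, 6.77 and 17.3 CPM in the young samples and at 5.50, 0.577 and 2.10 CPM in the old. Its highest value was in young 3 and its lowest in old 2, with the groups overlapping. Wnt5a, the best known ligand of the beta-catenin-independent branches, was at 3.92, 2.76 and 2.98 CPM in the young samples and at 10.1, 4.89 and 2.39 CPM in the old. The old samples enclosed the young range.

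Wnt7b ranged from 1.88 to 5.62 CPM over the 6 samples and Wnt10b, an inhibitor of fat cell formation, from 1.14 to 6.45 CPM, with the highest Wnt10b value in young 2. Wnt7a, which is known to expand satellite cells through Fzd7, was at 0.768, 0.010 and 0.274 CPM in the young samples and at 0.483, 0.528 and 2.67 CPM in the old. The value in young 2 rested on 2 counts, and old 3 was the highest. The remaining tested ligands were near the limit of detection. Wnt2 ranged from 0.024 to 0.477 CPM, Wnt11 from 0.049 to 0.244 CPM, Wnt6 from 0.024 to 0.189 CPM and Wnt2b from 0.018 to 0.140 CPM, all with overlapping groups.

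Wnt10a (chr1:74791516-74804179) was at 0.0442, 0.156 and 0.0734 CPM in the young samples and at 0.179, 0.642 and 0.418 CPM in the old, or 5, 30 and 15 counts against 30, 119 and 72. In CPM all 3 old samples were above all 3 young ones, although young 2 and old 1 held the same count. The log2 fold change of old over young was 2.14 (SE 0.63), the unadjusted p was 0.0156 and the adjusted p 1.00 (Benjamini-Hochberg) in the quasi-likelihood test of edgeR. Wnt1, Wnt3, Wnt3a, Wnt8a, Wnt8b, Wnt9b and Wnt16 were not tested, with 8, 23, 13, 2, 4, 3 and 12 counts in all.

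The Frizzled receptors summed to 63.4 ± 14.2 CPM (SD, n = 3) in the young and 62.6 ± 20.0 CPM (n = 3) in the old samples. The lowest sums were 47.0 CPM in young 1 and 40.0 CPM in old 1, the samples on the shorter gene list. Fzd2 led in 5 of 6 samples, with 14.0, 21.7 and 35.1 CPM in the young populations and 17.1, 21.2 and 23.0 CPM in the old, and the young samples enclosed the old range. Fzd3, a receptor of the planar polarity branch, led in young 2 and was at 7.02, 23.0 and 6.98 CPM in the young populations and 6.57, 16.6 and 21.4 CPM in the old samples. High values of Fzd3, near 20 CPM, and low ones, near 7 CPM, occurred in both groups. Fzd1 followed at 11.2, 5.88 and 7.97 CPM in the young populations and 5.53, 10.8 and 12.3 CPM in the old samples, and Fzd7, the receptor of Wnt7a in satellite cells, at 5.40, 6.25 and 5.73 against 3.28, 5.58 and 9.15 CPM. For both, the old samples ran from below to above the young ones.

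Fzd5 was the steadiest of the tested genes, with 3.97, 5.14 and 3.48 CPM in the young populations and 2.78, 4.87 and 2.90 CPM in the old samples, a 1.85-fold range. Fzd8 ranged from 1.47 CPM in old 3 to 7.39 CPM in young 2. Fzd6, which acts with Fzd3 in planar polarity, was at 0.813, 0 and 3.36 CPM in the young populations and 0.685, 4.63 and 6.72 CPM in the old samples. Young 2 had 0 counts of Fzd6 among 10806 cells, which allows a share of up to 0.0278% of cells with a UMI. Set against a floor of 3 counts in that library, the lowest of the other samples was at least 44.0-fold higher.

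Fzd4, also the receptor of Norrin, was at 1.23, 2.03 and 6.34 CPM in the young populations and 0.846, 1.36 and 0.476 CPM in the old samples. Old 2 lay above young 1, so the groups overlapped, and the log2 fold change was -1.65 (SE 0.80), or -0.89 without young 3. Fzd9 (chr5:135248938-135251230) was at 0.486, 0.192 and 0.289 CPM in the young populations and at 0.590, 0.992 and 0.626 CPM in the old samples. All old samples of Fzd9 were above all young ones, with a log2 fold change of 1.27 (SE 0.65) that did not pass the test.

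The secreted antagonists also varied widely between populations. Sfrp2 was at 0.795, 32.7 and 4.69 CPM in the young populations and at 0.274, 1.85 and 7.50 CPM in the old samples, a 119-fold range over populations. Sfrp4 was at 7.67 CPM in young 2 and at no more than 0.167 CPM in the other 5. The log2 fold changes of old over young, -1.85 (SE 0.87) for Sfrp2 and -4.55 (SE 1.84) for Sfrp4, rested on young 2, since without it they were -0.67 and -0.56. Sfrp1 went the other way in that population, with 1 count in young 2 against 2.69 and 1.95 CPM in the other young samples and 0.697, 0.620 and 0.104 CPM in the old.

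Dkk2 was at 0.565, 1.03 and 11.3 CPM in the young populations and at 2.47, 0.0270 and 1.26 CPM in the old samples, which is a 418-fold range. The lowest value, in old 2, rested on 5 counts. Dkk3, a divergent Dickkopf that does not bind the Lrp co-receptors in the usual way, reached 1.18 CPM in old 2 and 0.415 CPM in young 2 and stayed at or under 0.108 CPM elsewhere. Dkk1 and Dkk4 were not tested, with 18 and 4 counts in all. The leading antagonist therefore differed between populations, with Sfrp2 in young 2, old 2 and old 3, Dkk2 in young 3 and old 1, and Sfrp1 in young 1.

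Between old and young, 0 of the 26 tested genes were called with edgeR's quasi-likelihood test at an adjusted p of 0.05, against 1 of 14512 genes overall (0.00689%). DESeq2 called 0 of the 26 as well, and 219 of all genes (1.51%). At an unadjusted p under 0.05 the family had 1 gene in edgeR, Wnt10a, against 512 of all genes (3.53%), and 5 of 26 in DESeq2, against 1068 of all genes (7.36%). With no filter on low counts, edgeR gave 3 of 35 members, against 657 of 18797 genes (3.5%). The old and young values did not overlap for 2 genes, Wnt10a and Fzd9, which is 7.69% of the 26 beside 6.05% of all genes. Both were higher in old, a direction that held for 3.63% of all genes. Dkk1, too low to be tested, had 1, 6 and 10 counts in young 1, 2 and 3 and 0, 1 and 0 counts in old 1, 2 and 3. In CPM all young values of Dkk1 lay above all old ones, although young 1 and old 2 held the same count. That direction held for 0.793% of the 4285 untested genes with counts. Of the 26 log2 fold changes, 14 were positive and 12 negative, with a median of 0.18 beside -0.01 for all genes.

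The spread between populations was wide. From the lowest to the highest sample, 19 of the 26 genes differed by more than 5-fold, a count that was not made for all genes. It includes Fzd6, Sfrp1, Wnt7a, Wnt2b and Sfrp4, whose lowest sample held 0 to 2 counts. The SD of log2 CPM over the 6 samples, with a small constant added that damps low values, had a median of 0.68 for the 26 genes. It was 0.39 for all tested genes. Among genes with a mean of 1 to 30 CPM the medians were 0.90 for 18 family members and 0.44 for 7278 genes. The SE of the family's fold changes had a median of 0.86 on the log2 scale and ran from 0.28 for Fzd2 to 2.30 for Dkk2.

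Detection per cell also differed between populations. After each cell was thinned to 5000 UMIs, leaving out 539 shallower cells in young and 829 in old samples, a Wnt transcript was detected in 6.57%, 14.4% and 14.6% of cells in young 1, 2 and 3 and in 13.7%, 25.9% and 14.0% in old 1, 2 and 3. A Fzd transcript was detected in 18.3%, 29.5% and 31.7% of cells in the young and in 19.6% of cells in old 1, with old 3 at 29.6% and old 2 close to it. Cells with both a Wnt and a Fzd transcript made up 1.31% to 5.25% in young and 3.11% to 8.99% in old samples. The groups overlapped in each of these measures. These shares cover detection at this depth, no cell class that should lack the genes was named, and free RNA was not estimated.

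Wnt4 was detected in 16.0% of cells in old 2 and in 0.545% to 2.93% elsewhere, and without thinning in 39.6% against 1.33% to 7.62%. Wnt9a was detected in 9.87% of cells in old 3, 5.38% in old 2 and 0.546% to 2.81% in the other 4 samples. Sfrp2 and Sfrp4 set young 2 apart in the same way, since an Sfrp transcript was detected in 13.3% of its cells and in 0.495% to 3.41% of cells elsewhere. Over the 26 tested genes, 14 had a higher mean share in old. The lowest p in a two-sided exact permutation test was 0.1, the smallest that 3 samples against 3 can give, and was reached by Wnt10a and Fzd9 (adjusted p = 0.945 over 26 genes). Wnt10a was detected in 0.0355% to 0.0941% of cells in the young and in 0.151% to 0.270% in the old samples, and Fzd9 in 0.0939% to 0.201% and 0.288% to 0.588%.

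Cells with and without a Myog UMI were then compared within each sample, since Myog marks cells that have begun to differentiate. The classes held 298, 2150 and 574 cells with a Myog UMI in young 1, 2 and 3 and 62, 1252 and 5605 in old 1, 2 and 3, and a cell without a detected Myog molecule can still hold Myog RNA. All 10 differentiation genes of the check list were called higher in the Myog class. Of the Wnt, Fzd, Sfrp and Dkk genes, 19 had enough counts in the classes to be tested. Between the classes 7 were called, beside 30.1% of all 12375 genes in either direction. In the Myog class 5 were higher, which is 26.3% beside 13.4% of all genes, and 2 were lower, which is 10.5% beside 16.7%. The median log2 fold change of the 19 was -0.06, as was that of all genes. Without young 2 or old 3 the number called was 4 and 3.

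Wnt9a (chr11:59306928-59333552) had the largest difference of the 19. It was at 17.3, 23.8 and 4.38 CPM in the Myog class of young 1, 2 and 3 and at 3.22, 2.20 and 0.837 CPM in their other cells. In old 1, 2 and 3 it was at 40.9, 25.6 and 53.9 CPM with Myog and at 3.22, 8.29 and 5.57 CPM without. The Myog class was higher in 6 of 6 samples, 6.83-fold on average (log2 fold change 2.77, SE 0.30, adjusted p = 0.000676 in edgeR's quasi-likelihood test). In the cells without Myog, Wnt9a was still above 5 CPM in old 2 and old 3 and at or under 3.22 CPM in the other 4 samples.

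Wnt4 (chr4:137277489-137299726) was at 2.25, 11.9 and 10.3 CPM in the Myog class of the young samples against 1.25, 4.72 and 6.10 CPM, and at 14.6, 44.9 and 3.09 CPM against 1.17, 36.0 and 1.60 CPM in the old. It was higher with Myog in 6 of 6 samples (log2 fold change 0.90, SE 0.24, adjusted p = 0.0199). The high level of Wnt4 in old 2 was present in both classes of its cells. The value in old 1 rested on 5 counts.

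Among the receptors, Fzd5 (chr1:64730558-64737751) was at 9.77, 10.5 and 6.57 CPM with Myog in the young samples against 3.99, 4.49 and 3.60 CPM without, and at 5.84, 8.29 and 2.97 CPM against 2.86, 4.12 and 2.53 CPM in the old. It was higher in 6 of 6 samples, by the least in old 3 (log2 fold change 0.91, SE 0.18, adjusted p = 0.00442 in edgeR's quasi-likelihood test). The value with Myog in old 1 rested on 2 counts. Fzd2 (chr11:102604396-102608058) rose by a log2 fold change of 0.44 (SE 0.11, adjusted p = 0.0141), from 14.0 to 34.2 CPM without Myog to 20.4 to 50.7 CPM with it. Fzd2 was higher in 6 of 6 samples in TMM-scaled CPM, but in old 1 on only 7 counts (20.4 CPM with Myog against 17.7 CPM). In old 2 it was nearly level, at 22.5 CPM with Myog and 21.9 CPM without, and the log2 ratio there was -0.02 before TMM scaling. Fzd9 rose by 1.59 (SE 0.38, adjusted p = 0.0110 in edgeR's quasi-likelihood test), from 0.164 to 0.985 CPM to 0 to 2.03 CPM, and was higher in 5 of 6 samples. Its counts with Myog were only 2, 3 and 4 in young 1, 2 and 3, and 13 and 29 in old 2 and old 3. Old 1 gave no direction, with 0 counts among 62 cells against 42 counts in 9844 other cells.

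The genes lower in the Myog class were Wnt5a (chr14:28504750-28527448) and Dkk2 (chr3:132085292-132180304). Wnt5a was at 0, 2.00 and 2.50 CPM with Myog against 3.96, 2.57 and 2.97 CPM without in the young samples, and at 0, 2.19 and 0.436 CPM against 10.3, 4.90 and 2.25 CPM in the old. It was lower with Myog in 6 of 6 samples (log2 fold change -1.25, SE 0.37, adjusted p = 0.0298 in edgeR's quasi-likelihood test), and the highest level in cells without Myog was in old 1. The young 1 and old 1 values were 0 counts in 298 and 62 cells, against 139 and 545 counts in other cells. Young 3 was nearly level, with a log2 ratio of -0.13 before TMM scaling. Dkk2 fell by 1.47 on the log2 scale (SE 0.36, adjusted p = 0.0112). Most of its counts came from young 3, at 4.69 CPM with Myog and 11.9 CPM without (15 and 654 counts). It was also lower with Myog in young 2 (4 against 47 counts) and old 3 (4 against 21 counts). The other samples give no direction, since young 1 and old 1 had 0 counts in Myog classes of 298 and 62 cells, against 12 and 126 counts in 8146 and 9844 other cells, and old 2 had 1 count in each class.

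**Figure D3:**
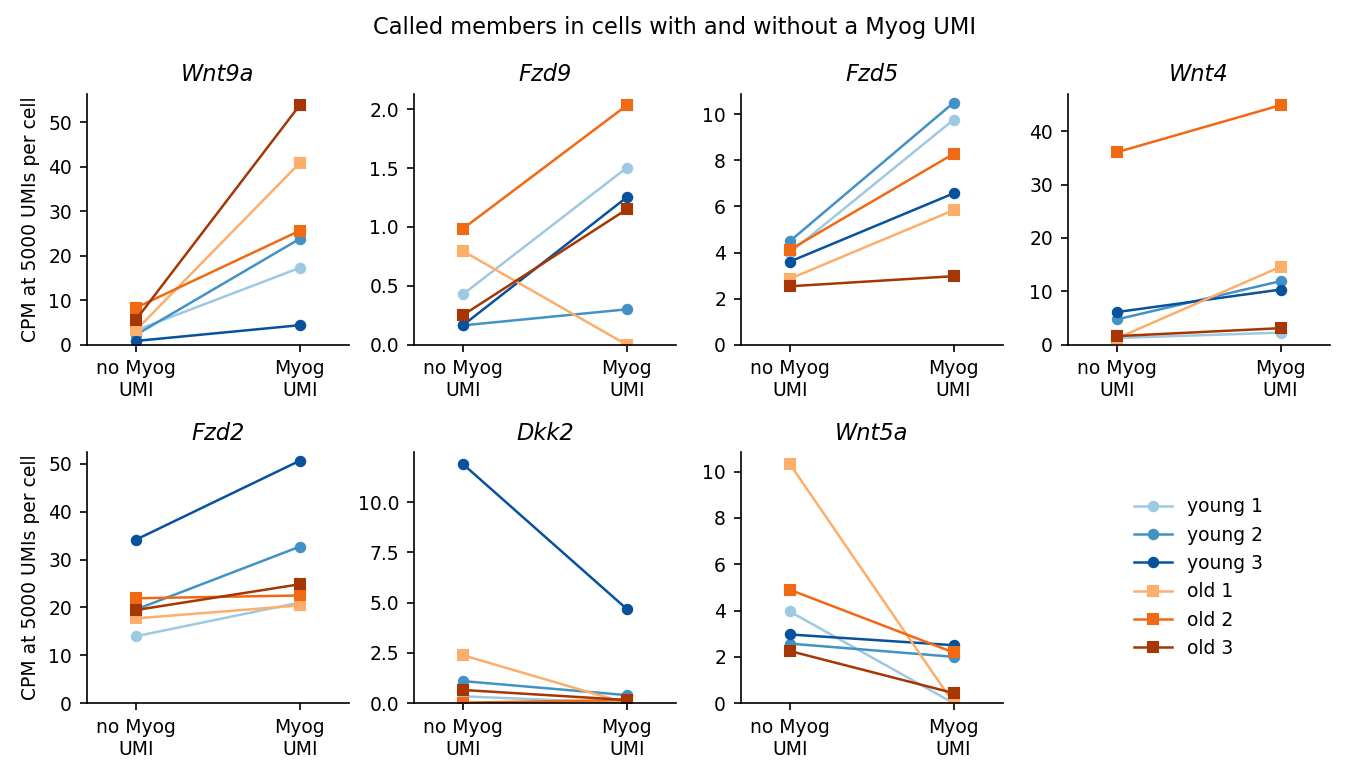
CPM (TMM-scaled, cells thinned to 5000 UMIs) of the 7 genes called between cells without and with a Myog UMI, with 1 line for each sample and a scale of its own for each gene. Wnt9a, Fzd5 and Wnt4 go up in 6 of 6 samples. Wnt5a goes down in 6 of 6, with 0 counts in the Myog class of young 1 and old 1. Fzd2 goes up in 6 of 6 but is nearly level in old 2. Fzd9 goes up in 5 and has 0 counts in the Myog class of old 1, and Dkk2 has 0 or 1 count in the Myog class of 3 samples. Points of the Myog class of old 1 rest on 62 cells.

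Among the genes not called, Fzd3, Fzd7 and Fzd1 had log2 fold changes of 0.41, 0.39 and 0.36, and Wnt7a, Sfrp1, Wnt7b, Fzd8 and Wnt5b of -1.32, -0.60, -0.46, -0.46 and -0.44. Wnt9a and Fzd5 passed the threshold under all alternatives that were run. The calls of Fzd2 and Wnt4 were lost without young 2 (adjusted p = 0.0660 and 0.0759), those of Wnt4 and Fzd9 without old 3 (0.0616 and 0.0729) and that of Wnt5a without old 2 or old 3 (0.0822 and 0.113), all in edgeR's quasi-likelihood test. Dkk2 lost its call with DESeq2 (log2 fold change -1.35, adjusted p = 0.0655). It had too few counts to be tested without young 2, young 3 or old 3, or where the class needed 2 or more Myog UMIs.

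Markers of other cells moved with the Myog split. The fibro-adipogenic sum was lower in the Myog class in 5 of 6 samples (177 to 461 CPM against 307 to 512 CPM), and 3 of 7 tested genes of that list, Cd34, Smoc2 and Dcn, were called lower. The tendon sum, which is nearly all Scx, was higher with Myog in 6 of 6 samples (245 to 396 CPM against 117 to 275 CPM). The 2 tested tendon genes went opposite ways, with Scx called higher (log2 fold change 0.72) and Mkx called lower (-0.77). Of the mural genes Rgs5 was called lower (-1.01) and Notch3 was not called (0.06). Their part in the differences of the Wnt genes was not tested. The percentage of cycling cells, which are those with a UMI of Mki67 or Top2a, was lower in the Myog class in 6 of 6 samples, at 8.15% to 57.5% against 28.8% to 65.3%. Among cells without such a UMI, leaving out old 1 with 45 cells, the 5 genes higher with Myog were again called, with log2 fold changes of 2.77 for Wnt9a, 1.61 for Fzd9, 0.87 for Fzd5, 0.67 for Wnt4 and 0.52 for Fzd2. Fzd7 (0.52) and Fzd1 (0.37) joined them, Wnt5a was lower again (-1.28) and so was Fzd8 (-0.59), and Dkk2 was not tested. This alternative was chosen after the data had been seen.

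The second division of the cells was by proliferation. Cells with a UMI of Mki67 or Top2a, which made up 25.8% to 65.1% of a sample at 5000 UMIs, were compared with the other cells of the same sample, and all 6 cell cycle genes of the check list were higher in them. Of 19 tested genes 0 were higher in cycling cells beside 19.3% of all 12331 genes, and 7 were lower, which is 36.8% beside 25.6%. The 7 were Fzd9, Wnt9a, Wnt4, Fzd6, Fzd8, Fzd3 and Wnt5a, and without young 3 or old 2 there were 4. The median log2 fold change was -0.17 for the 19 genes and -0.04 for all. Other markers moved with this division too. All 10 differentiation genes were called lower in cycling cells, as were 8 of 10 myogenic markers, the fibro-adipogenic genes Gsn and Col3a1 (2 of 7 tested), the mural genes Rgs5 and Notch3 (2 of 2) and the tendon gene Scx (1 of 2). The fibro-adipogenic genes Smoc2 and Cd34 and the tendon gene Mkx had positive log2 fold changes (0.22, 0.16 and 0.14) and were not called. The fibro-adipogenic sum was lower in cycling cells in 6 of 6 samples (285 to 439 CPM against 339 to 512 CPM), and so were the tendon sum (116 to 251 against 129 to 314 CPM), the mural sum (3.93 to 61.9 against 4.34 to 87.7 CPM) and the Schwann sum (0.889 to 5.54 against 1.04 to 6.31 CPM). The adipocyte sum was higher in cycling cells in 5 of 6 samples (1.48 to 22.6 against 0.477 to 22.4 CPM). The part of these markers in the differences of the Wnt and Fzd genes was not tested.

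Fzd9 fell by 1.41 on the log2 scale (SE 0.29, adjusted p = 0.00248), from 0.312 to 1.38 CPM in the other cells to 0 to 0.615 CPM in cycling cells, in 6 of 6 samples. Its counts in cycling cells were only 4, 0 and 5 in young 1, 2 and 3 and 21, 5 and 7 in old 1, 2 and 3. Wnt4 fell by 0.68 (SE 0.13, adjusted p = 0.00200) in 6 of 6 samples, and in old 2 it was at 28.6 CPM in cycling cells and at 40.0 CPM in the others. Fzd3 fell by 0.37 (SE 0.07, adjusted p = 0.00120) in 6 of 6 samples, for example from 24.6 to 19.0 CPM in young 2 and from 17.5 to 11.9 CPM in old 2. Wnt9a fell by 0.86 (SE 0.22, adjusted p = 0.0135) in 6 of 6 samples, from 35.1 to 16.6 CPM in old 3 and from 3.82 to 3.56 CPM in young 1.

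Wnt5a (-0.36), Fzd6 (-0.44) and Fzd8 (-0.40) passed with adjusted p-values of 0.0213, 0.0380 and 0.0397 in edgeR's quasi-likelihood test, and each lost its call under 5 or 6 alternatives. Of the samples left out in turn, young 1, young 3, old 1 and old 2 ended the call of Fzd6 (adjusted p = 0.0682 to 0.138), all but young 1 that of Fzd8 (0.0726 to 0.113), and young 2, young 3 and old 2 that of Wnt5a (0.0575 to 0.0689). DESeq2 did not call Fzd6 or Fzd8 (adjusted p = 0.0704 and 0.0794) and gave no adjusted p for Fzd9 (log2 fold change -1.55, unadjusted p = 0.00109), which was also not tested with 2 or more UMIs. Wnt5a was not called with 2 or more UMIs or without thinning (adjusted p = 0.0551 and 0.0970 in edgeR's quasi-likelihood test). Wnt4 and Fzd3 passed under all alternatives that were run. Among cells without a Myog UMI, Wnt4 (-0.66), Wnt5a (-0.41), Fzd3 (-0.34), Fzd6 (-0.46) and Fzd8 (-0.44) were again called lower in cycling cells. Wnt9a was not (-0.25, adjusted p = 0.113) and Fzd9 had too few counts. The call of Wnt9a was also lost without old 3 (adjusted p = 0.0559).

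Fzd2, the most abundant of the receptors, had a log2 fold change of 0.06 (SE 0.05) and Fzd1 of -0.06 (SE 0.10) with proliferation. Sfrp1 had the highest value, 0.59 (SE 0.24, adjusted p = 0.0705), and was higher in cycling cells in 4 of the 5 samples that had counts in these classes.

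**Figure D4:**
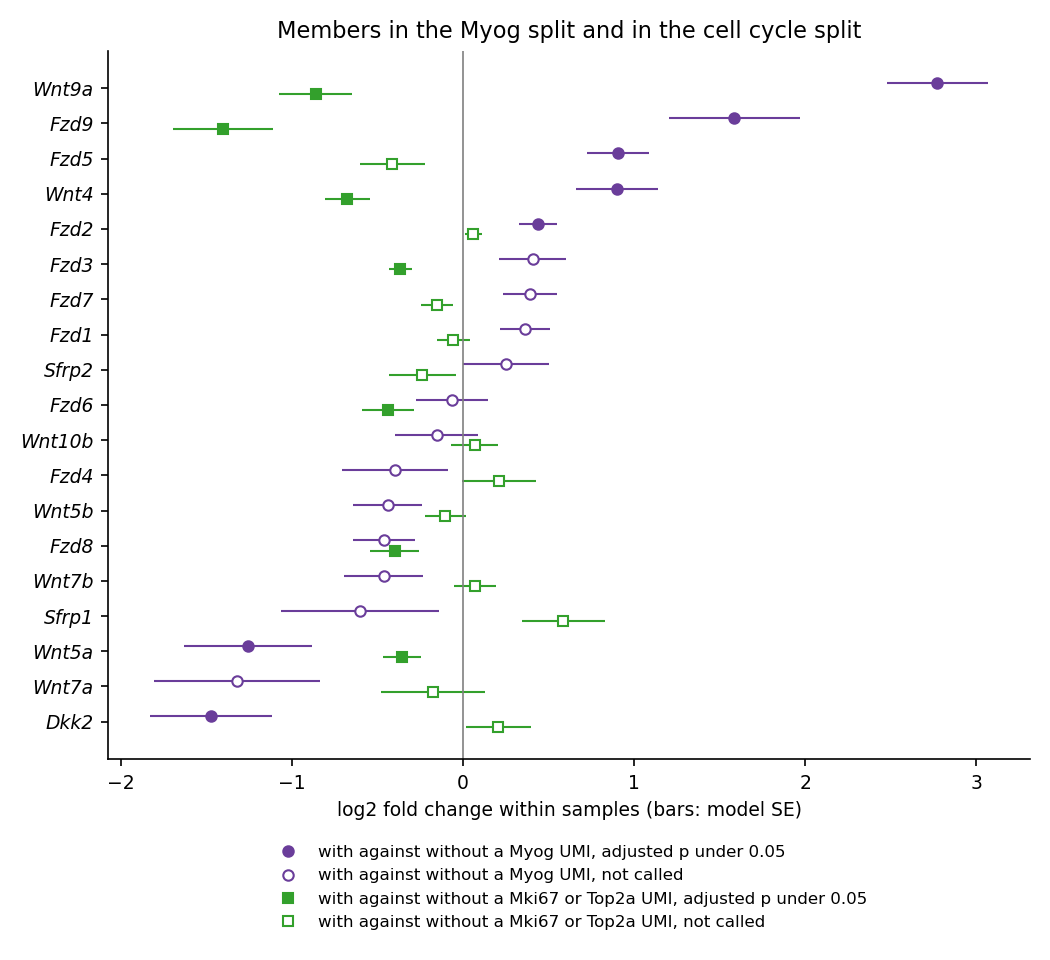
log2 fold changes within samples with model SE for the 19 genes tested in both divisions of the cells, with circles for the Myog division and squares for the cell cycle division and filled symbols for an adjusted p under 0.05. Wnt9a, Fzd9 and Wnt4 are higher with Myog and lower in cycling cells, Wnt5a is lower in both, and Fzd2 is higher with Myog and near 0 in the other.

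The rest of the pathway was described with 71 further genes in 7 groups. Between old and young, 0 of 62 tested were called, and the groups did not overlap for 5, all lower in old, a direction that held for 2.42% of all genes (6.05% in either direction). Wls, the carrier that brings Wnt proteins to the cell surface, was at 173, 142 and 208 CPM in young 1, 2 and 3 and at 104, 115 and 92.2 CPM in old 1, 2 and 3. All old samples were lower (log2 fold change -0.75, SE 0.24, not called). The others were Camk2d, a kinase of the calcium branch (128 to 177 CPM in young, 83.7 to 109 in old), Bcl9, a beta-catenin cofactor (14.7 to 22.8 against 9.35 to 11.4), the Wnt5a-binding receptor Mcam (4.88 to 8.69 against 0.983 to 3.67) and the kinase Gsk3a (31.7 to 36.6 against 26.0 to 31.6). Among the genes too low to be tested, the beta-catenin target Nkd1 was at 0, 0.0052 and 0.0147 CPM in the young samples, which is at most 3 counts, and at 0.0477, 0.119 and 0.191 CPM in the old. All old values lay above all young ones for 5.27% of the 4285 untested genes with counts.

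In the Myog class 7 of 51 tested pathway genes were higher and 6 lower, beside 13.4% and 16.7% of all genes. Porcn, the acyltransferase that lipidates Wnt proteins, rose by 1.50 on the log2 scale (SE 0.17), and Kremen1, a receptor through which Dkk proteins act on Lrp6, by 1.24 (SE 0.13). Csnk1a1, a kinase of the beta-catenin destruction complex, rose by 0.39 (SE 0.07). Of the commonly used targets of beta-catenin, 0 of 8 were called higher and 4 were called lower, namely Myc (-1.13), Ccnd1 (-1.0), Apcdd1 (-0.82) and Lef1 (-0.49). Several of these genes also respond to other signals. The log2 fold change was negative for 6 of the 8 and positive for 2, Axin2 (0.84, SE 0.43) and Tcf7 (0.54, SE 0.28), neither called. Apcdd1, an inhibitor as well as a target, and the inhibitor Tpbg (-0.59) were the lower genes among the other antagonists. Camk2d (-0.49) was lower too.

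In cycling cells 8 of 51 pathway genes were higher and 8 lower, beside 19.3% and 25.6% of all genes. Lgr5, an R-spondin receptor, rose by 0.86, the polarity gene Vangl1 by 0.58, Apcdd1 by 0.56 and Tpbg by 0.25, and the kinase Gsk3a and the scaffold Axin1 each rose by 0.19. Nfatc3, a transcription factor of the calcium branch, rose by 0.16. Kremen1 (-0.48), the polarity gene Prickle1 (-0.28), Wls (-0.20) and Ctnnb1, which encodes beta-catenin (-0.17), were lower. Of the intracellular transducers 3 were called higher, with Bcl9l (0.17) beside Gsk3a and Axin1. In that group 4 were called lower, with Dvl3 (-0.25), Gsk3b (-0.14) and Csnk1a1 (-0.12) beside Ctnnb1. The target most specific to the pathway, Axin2, was at 0.137 to 1.95 CPM over the 6 samples, and Notum at no more than 0.067 CPM. Of the co-receptors, 0 of 8 were called in either division of the cells, and the most abundant, Sdc4, Ryk and Lrp6, had means of 122, 89.4 and 27.9 CPM in young and 124, 81.5 and 23.6 CPM in old samples. The R-spondin receptors Lgr4 (4.38 to 31.9 CPM) and Lgr6 (0.234 to 30.2 CPM) and the ligase Znrf3 (9.74 to 23.4 CPM) varied between samples with overlapping groups.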

How the data were processed

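Droplet-based 3′ single-cell RNA sequencing was done on 3 young and 3 old MDSPC populations. The authors deposited raw UMI counts per gene and barcode for each sample, per the file headers made with Cell Ranger 7.0.0 (young 1, old 1; a list of 21849 features) or 7.2.0 (the others; 32285 features). The submitters' processing notes name Cell Ranger 7.2.0, Seurat 5.134 and build mm10, and the role of Seurat, the treatment of intronic reads and of doublets are not given in the sources used here. All results used the 21485 shared Ensembl identifiers, which held 98.5% to 99.9% of the UMIs. Cells had 1000 or more UMIs, 500 or more genes and at most 15% mitochondrial UMIs. Doublets were not called. An alternative removed the cells of highest UMI count up to the expected share (0.8% per 1000 barcodes). Gene coordinates are from GENCODE M21 (build GRCm38).

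Counts were summed per sample (the replicate) and tested two-sided with the quasi-likelihood F test of edgeR 4.0.16 (R 4.3.3; filterByExpr, TMM, robust fit, Benjamini-Hochberg over all tested genes at 0.05) with a term for the gene list. DESeq2 1.42.0 was an alternative. SE is the absolute log2 fold change over the square root of F. For the divisions by a Myog UMI and by a Mki67 or Top2a UMI, cells thinned to 5000 UMIs were summed per class and sample, with the sample as a block. A class under 50 cells left its sample out. On simulated counts with a biological coefficient of variation of 0.5, near the 0.563 measured between populations, 2.02% of 2-fold and 82.8% of 8-fold changes were recovered between old and young among 14411 genes. For the Myog division at 0.2 (measured 0.153) it was 83.7% and 100.0% among 12334 genes, and for the cell cycle division at 0.2 (measured 0.0787) 97.0% and 100.0% among 12279 genes. Each simulated gene had the same coefficient. The rates between old and young may be too high for the family, whose median spread was above that of all genes. The family, the pathway and marker lists (myogenic, fibro-adipogenic, endothelial, blood, mural, Schwann, tendon, adipocyte) and the tests were chosen with earlier results of these data known. Every family member is accounted for, and those that passed the filter between old and young are given with their values. Pathway genes were named if among the 3 of highest mean CPM in a group, called (at most 4 a group, smallest p first) or without overlap of old and young (at most 3 a group). Bcl9l, Dvl3 and Gsk3b were named beside these, so that every transducer called in the cell cycle division appears. Intervals and floors cover counting error only.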

Additional observations from a re-analysis of the deposited data

Results flagged for a closer look

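Within each sample, the log2 ratio of a gene between its classes of cells was examined for a sample that stood apart from the other 5, over 38 ratios. The gap to the nearest sample over the whole range had to be above Dixon's limit for 6 values, a limit that chance passes in about 1 of 20 groups. The ratios include a prior of 0.5 counts, so those with 0 counts are no bounds. Between cells with and without a Myog UMI, Fzd5 had a log2 ratio of 0.12 in old 3 against 0.92 to 1.39 in the other samples. In the same division old 1 was high for Wnt4, at 3.80 against 0.26 to 1.22, and for Fzd3, at 2.34 against -0.21 to 0.54. The Myog class of old 1 was 62 cells, with 5 and 11 counts of these genes. Between cycling and other cells, Fzd9 had a log2 ratio of -3.67 in young 2 (0 against 10 counts) and of -1.56 to -0.75 elsewhere, and Sfrp1 had -1.80 in old 3 (0 against 2 counts) and 0.23 to 1.09 elsewhere.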

How the results depend on the processing

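Between old and young, 0 family members were called under every alternative run, that is DESeq2, DESeq2 size factors in edgeR, no filter, no term for the gene list, the longer list alone, all barcodes, removal of the cells of highest UMI count, each replicate left out and a replicate block. At an unadjusted p under 0.05 there was 1 member in edgeR, 5 with DESeq2, 3 with no filter and 0 to 2 under the others. The number of all genes called was 1 at first, 219 with DESeq2, 0 without the list term, 0 on the longer list alone, and 0 to 3 when a sample was left out. Same-numbered samples need not come from 1 donor. Their deviations correlated with r = 0.42, 0.32 and -0.08 for numbers 1, 2 and 3 over 8196 genes, and not every sample correlated best with its own number. Young 1 and old 1 also shared the shorter gene list, so these values cannot settle whether the numbers pair the samples. The fit with the replicate block called 1 gene and 0 members. In the Myog division the members called lower were 2, or 4 where the class needed 2 or more UMIs and 1 with DESeq2. When a sample was left out, 3 to 8 members were called, 3 to 5 higher and 0 to 3 lower, among 2444 to 3927 genes. The lowest values were those without old 3 (3 members) and young 2 (4 members). In the cell cycle division DESeq2 called 4 members, all 4 lower, and without thinning 1 member, Sfrp1, was higher. When a sample was left out, 4 to 6 members were called, 0 or 1 higher and 4 to 6 lower, among 4585 to 5353 genes, with 4 without young 3 or old 2. The number of members with a higher mean share of cells in old was 14, and 13 to 20 with a sample left out, the highest without young 2. The 19 fold changes followed singly gave 230 values under alternatives, with 0 reversed and 25 calls lost, of which 19 when a sample was left out. This does not count Fzd9 in the cell cycle division, for which DESeq2 gave no adjusted p. The causes were not tested. The alternatives within non-cycling cells and within cells without Myog were chosen after the data had been seen. Class values of rare genes rest on few counts, and 3 samples a group limit the comparison of ages.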

Other observations

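In young 2, Fzd6 had 0 counts and Sfrp1 had 1 count, whereas most genes near them were detected there at levels within the range of the other samples. These were chosen after their values had been seen. Fzd6 lies at chr15:39006034-39038188. Of its neighbours, Slc25a32 was at 13.7 CPM in young 2 and 9.95 to 17.9 CPM in the other samples, Dcaf13 at 43.6 and 40.7 to 50.2 CPM, and Baalc at 18.7 and 4.59 to 22.5 CPM. Cthrc1 varied widely, at 20.7 CPM in young 2 and 0.0177 to 24.7 CPM elsewhere. Sfrp1 lies at chr8:23411502-23449632. There Gins4 was at 37.1 CPM in young 2 and 26.1 to 41.3 CPM elsewhere, and Golga7 at 46.5 and 37.7 to 58.7 CPM. Zmat4 was under 1 CPM in all 6 samples, and Ido2 was at 0.0259 CPM in young 2, below the 0.145 to 1.41 CPM of the others. Wnt7a had 2 counts in the same population, and Sfrp2 and Sfrp4 were higher there than in any other.

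The Fzd and Sfrp sums of CPM gave different orders of the populations. The ratio of the Sfrp to the Wnt sum was 0.234, 1.22 and 0.217 in young 1, 2 and 3 and 0.0354, 0.0427 and 0.198 in old 1, 2 and 3. All old values were below all young ones, and this ratio was not tested, having been chosen after the data had been seen. The annotated Wnt5b overlaps Fbxl14 on the opposite strand.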
